A study of Rattus norvegicus with 20 samples.

Results

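The genes described here are Grm2, Grm3, Grm4, Grm5, Grm7 and Grm8, which encode metabotropic glutamate receptors, and Homer1 and Homer2, which encode scaffold proteins that bind some of them. They were taken as the probe sets (groups of short array probes read as 1 value) that the array's annotation assigned to exactly 1 of these 8 symbols. This gave 15 probe sets out of 31099 on the array, where 14217 genes have a symbol. Where a gene had several probe sets, the one with the highest mean over all arrays is called its main probe set. The genes were chosen on family membership, with the ethanol minus water differences of these arrays already known, so their differences between the groups are given as a description.

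The study measured RNA of the central nucleus of the amygdala in alcohol-preferring (P) rats, a line selectively bred for high alcohol intake. The ethanol group was 10 animals that could drink ethanol solutions of 15% and 30% during adolescence, and the water group was 10 animals of the same line that had water only. Each animal gave 1 Affymetrix array. The sources used here do not give the amount each animal drank, its sex or its age in days, and a P rat without access to alcohol is the comparison throughout, not a rat of an unselected line.

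Metabotropic glutamate receptors are G-protein-coupled receptors that adjust synaptic transmission more slowly than the ion-channel glutamate receptors. Group I receptors such as Grm5 sit mainly beside the postsynaptic density, couple to Gq and phospholipase C, and are tethered by Homer proteins. Group II receptors (Grm2 and Grm3) and group III receptors (Grm4, Grm7 and Grm8) couple to Gi and Go and mostly reduce transmitter release, with Grm3 also made by glia. Homer1 yields long forms that link receptors into clusters and a short form, induced by neuronal activity, that uncouples them. The annotation does not say which Homer1 form each probe set reads.

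All values are log2 robust multi-array average (RMA) signals, so a difference of 1 is a doubling of signal. All 12 listed markers of central amygdala neurons, among them Prkcd, Sst, Penk and Gad2, were above the level filter, which was the 40th percentile of the mean over all arrays (log2 7.14). Ethanol animal 5 and water animals 15 and 18 stood apart from the other arrays in their overall correlation, and all were kept. The marker scores, each the mean of a list of marker genes, included one of myelin genes. It was 11.76 ± 0.47 in ethanol animals and 12.12 ± 0.40 in water animals. All 14 measured myelin genes had the lower mean in ethanol, 6 of them at an unadjusted limma p under 0.05. Other scores also had lower means in ethanol, among them choroid plexus and ependyma, at 7.19 ± 1.30 in ethanol animals and 8.32 ± 1.43 in water animals (5 of 5 tested genes with the lower mean, 3 of them at an unadjusted limma p under 0.05). The meningeal fibroblast score was 8.19 ± 0.67 in ethanol animals and 8.75 ± 0.99 in water animals (9 of 9 genes lower, 0 of them at that p). The astrocyte score was 12.38 ± 0.093 in ethanol animals and 12.49 ± 0.071 in water animals (10 of 11 genes lower, 2 of them at that p). No gene of these lists was called. Their part in the receptors' differences was not tested, beyond the values given below with a score as a covariate. The pan-neuronal score was higher in ethanol, at 12.13 ± 0.11 against 12.01 ± 0.11 in water animals. Of its 14 genes 13 were higher, 5 of them at an unadjusted limma p under 0.05. The striatal medium spiny neuron score was also higher in ethanol, at 10.27 ± 0.36 against 10.09 ± 0.27 (11 of 11 genes higher, 1 of them at that p). No gene of either list was called (SD over 10 animals a group for every score). Over all tested probe sets 57.8% had the higher mean in ethanol. At an unadjusted limma p under 0.05, 7.37% were higher and 5.48% lower. In such bulk tissue, fewer cells of a type and less RNA per cell cannot be told apart.

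Grm7 had the largest difference among the receptors, and it was higher in ethanol animals. The gene spans positions 145286714 to 146169099 of chromosome 4 in GRCr8. Its only probe set (1369781_at) had a lowest, median and highest value of 7.95, 8.35 and 8.72 in the 10 ethanol animals, against 7.12, 7.98 and 8.14 in the 10 water animals. All 10 ethanol animals lay above the water mean and 8 of them above the highest water animal, and 4 water animals lay below the lowest ethanol animal, so the groups overlapped only in part. Grm7 is a presynaptic group III receptor with low affinity for glutamate. The means were 8.34 ± 0.23 in ethanol animals against 7.88 ± 0.30 in water animals (mean and SD, n = 10 each). The log2 difference was 0.45 (SE 0.11, 95% interval 0.22 to 0.68), a 1.37-fold higher signal. It did not pass the test over all probe sets (limma, adjusted p = 0.182). Differences at least this large in either direction were found in 0.752% of the tested probe sets.

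None of the 13 probe sets of these genes that passed the level filter was called at an adjusted p of 0.05 (limma with Benjamini-Hochberg adjustment over 18625 probe sets), where 0.0215% of all tested probe sets were called. At an unadjusted p under 0.05 there were 5, of which 3 were higher and 2 lower in ethanol, that is 38.5% of the 13 against 12.8% of all tested probe sets (7.37% higher and 5.48% lower). Of the 13, 9 had the higher mean in ethanol and 4 the lower, where 57.8% of all tested probe sets had the higher mean. These 13 probe sets come from 6 genes and were chosen with their values known, and 8 of them belong to Homer1 and Grm8, so their counts are not independent. The median difference over the 13 was 0.097, against 0.016 over all tested probe sets.

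**Figure D1:**
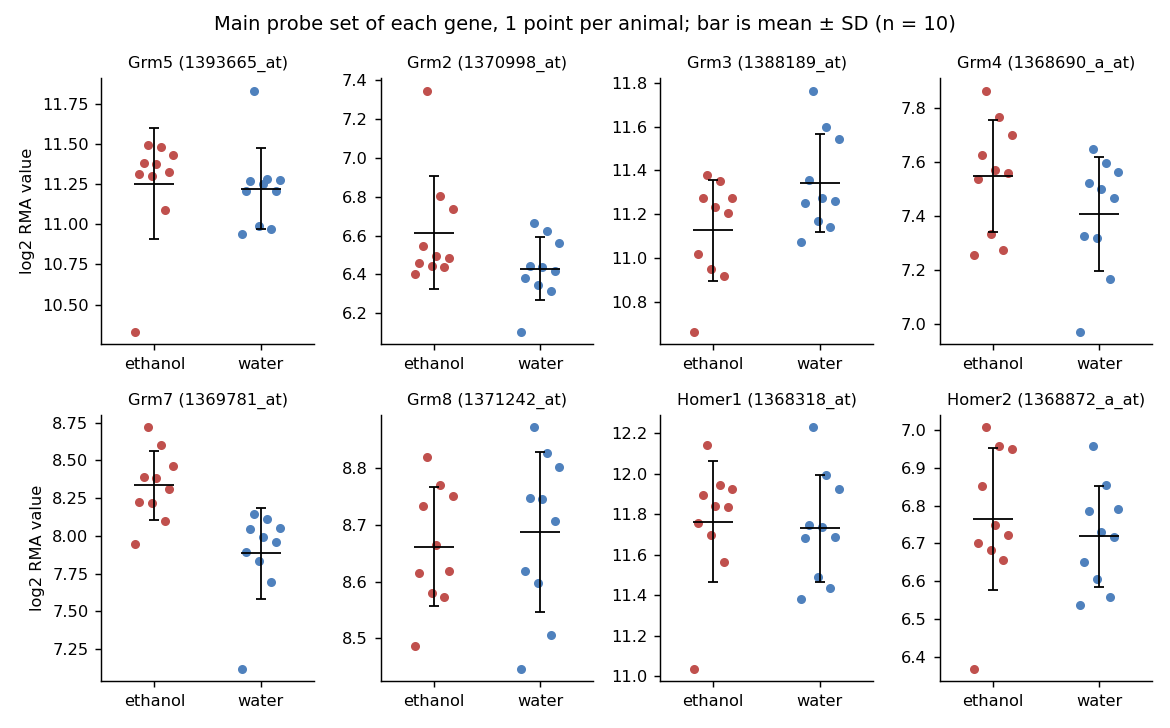
Log2 RMA value of the main probe set of each gene in every animal, with ethanol (red) left of water (blue), and the bar showing the mean and SD of 10 animals. The 10 ethanol animals sit above the water mean in the Grm7 panel, at 7.95 to 8.72 against 7.12 to 8.14 in water animals, while the groups overlap widely in the Homer1 panel.

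The difference of Grm7 was unequal across the accession order. The arrays form 3 runs in that order, which no label calls a batch, with 4, 4 and 2 animals of each group. The Grm7 difference was 0.52, 0.57 and 0.075 in the 3 runs. Leaving out 1 animal in turn gave differences of 0.37 (without water animal 15) to 0.49, and leaving out the 3 arrays that stood apart gave 0.33. With the myelin score in the fit the Grm7 difference was 0.41, and with the pan-neuronal score it was 0.46. The agreement between probe sets of Grm7 could not be examined, as the gene has 1.

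The other group III receptors differed less. Grm4, a presynaptic receptor of group III, had a lowest, median and highest value of 7.26, 7.56 and 7.86 in ethanol animals, against 6.97, 7.48 and 7.65 in water animals (1368690_a_at). Its difference was 0.14 (SE 0.089), with limma's adjusted p = 0.493, and the groups overlapped in most of their range. It was 0.070 with the myelin score in the fit and 0.093 without water animal 16. Grm8 is a presynaptic autoreceptor, and its 3 probe sets differed in direction. The main one (1371242_at) had 8.49, 8.64 and 8.82 in ethanol animals, against 8.45, 8.73 and 8.87 in water animals, a difference of -0.03 (SE 0.056), with limma's adjusted p = 0.871. The probe set 1369391_at had 8.56, 8.74 and 9.09 in ethanol animals, against 8.24, 8.62 and 8.83 in water animals, and was 0.22 higher (SE 0.082), with limma's adjusted p = 0.314. The probe set 1371243_at had 7.92, 8.11 and 8.39 in ethanol animals, against 7.60, 7.95 and 8.14 in water animals, and was 0.23 higher (SE 0.075), with limma's adjusted p = 0.284. These 2 thus read higher in ethanol where the main one did not, and in both all 10 ethanol animals lay above the water mean. The within-group deviations of these probe sets correlated at 0.66 with each other and at 0.44 with the main one in both cases (Pearson r, 20 animals). The value given for Grm8 thus depends on the probe set.

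Among the group II receptors, Grm3 had the lower signal in ethanol animals. Its probe set (1388189_at) had a lowest, median and highest value of 10.66, 11.22 and 11.38 in ethanol animals, against 11.07, 11.27 and 11.77 in water animals, and 4 ethanol animals lay below the lowest water animal. The means were 11.13 ± 0.23 in ethanol animals and 11.34 ± 0.22 in water animals, a difference of -0.22 (SE 0.096), with limma's adjusted p = 0.367. The difference was -0.21, -0.43 and 0.21 in the 3 runs. Grm3 is made by astrocytes and oligodendrocyte-lineage cells as well as neurons, and its value followed the myelin score closely across animals (r = 0.95, described further on). Adding that score to the fit gave a difference of -0.04 (SE 0.0401). Grm2 (1370998_at), a mostly presynaptic autoreceptor, lay below the level filter and has no call. It had 6.40, 6.49 and 7.35 in ethanol animals, against 6.10, 6.43 and 6.66 in water animals, a difference of 0.19 (SE 0.099), and 0.10 without ethanol animal 3, which held the highest value. With the myelin score in the fit the Grm2 difference was 0.05 (SE 0.081).

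**Figure D2:**
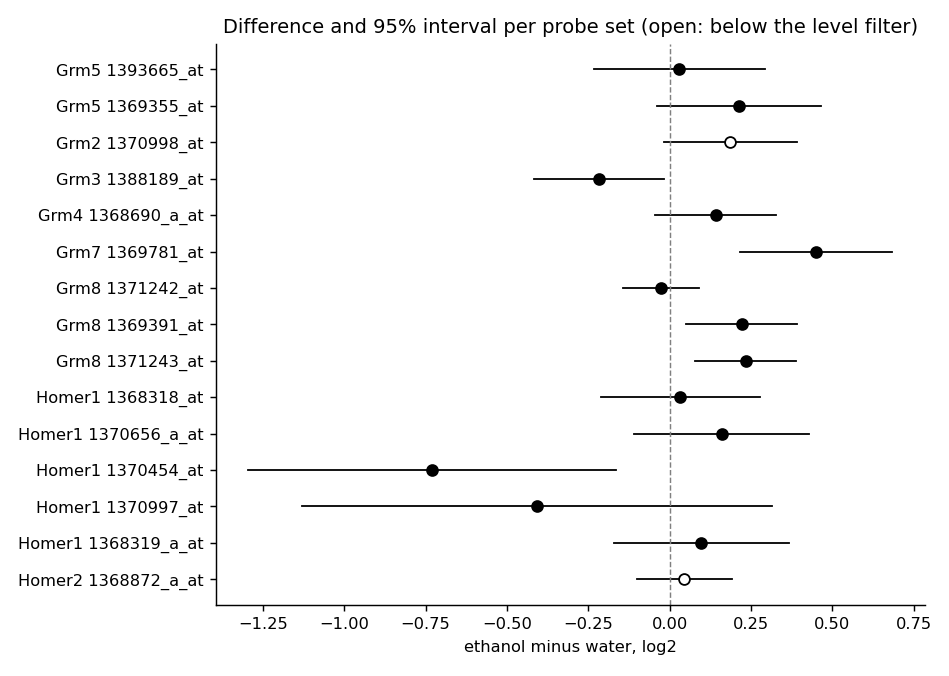
Log2 difference (ethanol minus water) of each probe set with its 95% interval from limma; open circles lie below the level filter. The intervals of Grm7, of Grm3, of the Grm8 probe sets 1369391_at and 1371243_at and of the Homer1 probe set 1370454_at leave out 0 before adjustment.

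Grm5, the group I receptor that Homer proteins bind, did not differ detectably on its main probe set. That probe set (1393665_at) had a lowest, median and highest value of 10.33, 11.35 and 11.49 in ethanol animals, against 10.94, 11.23 and 11.83 in water animals. The difference was 0.03 (SE 0.13, 95% interval -0.23 to 0.29), with limma's adjusted p = 0.940. The other probe set (1369355_at) had 7.84, 8.82 and 9.001 in ethanol animals, against 7.999, 8.57 and 8.75 in water animals, and 6 ethanol animals lay above the highest water animal. Its difference was 0.21 (SE 0.12), with limma's adjusted p = 0.451. The 2 groups overlapped over most of their range on the main probe set. By run its difference was -0.22, 0.22 and 0.16, so its direction turned with the run, while that of 1369355_at was 0.19, 0.27 and 0.14. The lowest value of both was ethanol animal 1, without which the differences were 0.13 and 0.31. With the myelin score in the fit they were -0.12 and 0.12. The within-group deviations of both Grm5 probe sets correlated at 0.69 with each other, and at 0.29 without ethanol animal 1 (Pearson r). Their r was 0.94 in ethanol animals and 0.21 in water animals.

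Homer1 was read by 5 probe sets, which differed in size and direction. The main one (1368318_at) had 11.04, 11.84 and 12.14 in ethanol animals, against 11.38, 11.71 and 12.23 in water animals, a difference of 0.03 (SE 0.12), with limma's adjusted p = 0.926. The probe sets 1370656_a_at and 1368319_a_at were 0.16 (SE 0.13) and 0.10 (SE 0.13) higher, with adjusted p = 0.601 and 0.767 in the same limma fit. The groups overlapped widely in all 3. Leaving out 1 animal gave 0.094 (without water animal 14) to 0.25 (without ethanol animal 1) for 1370656_a_at, and 0.046 (without water animal 18) to 0.18 (without ethanol animal 1) for 1368319_a_at. With the myelin score in the fit 1370656_a_at differed by 0.076 and 1368319_a_at by -0.0021. The probe set 1370454_at had 7.50, 9.44 and 10.24 in ethanol animals, against 9.23, 10.10 and 10.76 in water animals, with 9 of the 10 ethanol values under the mean of the water group. Its means were 9.39 ± 0.79 in ethanol animals and 10.12 ± 0.50 in water animals, a difference of -0.73 (SE 0.27), with limma's adjusted p = 0.314. It read lower in ethanol in each run, with differences of -1.01, -0.62 and -0.39. The difference was -0.52 without ethanol animal 1 and -0.90 with the myelin score in the fit. The probe set 1370997_at had a difference of -0.41 (SE 0.35), which was -0.14 without ethanol animal 1 and was -1.59, 0.21 and 0.72 in the 3 runs. With the myelin score in the fit it was -0.52.

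**Figure D3:**
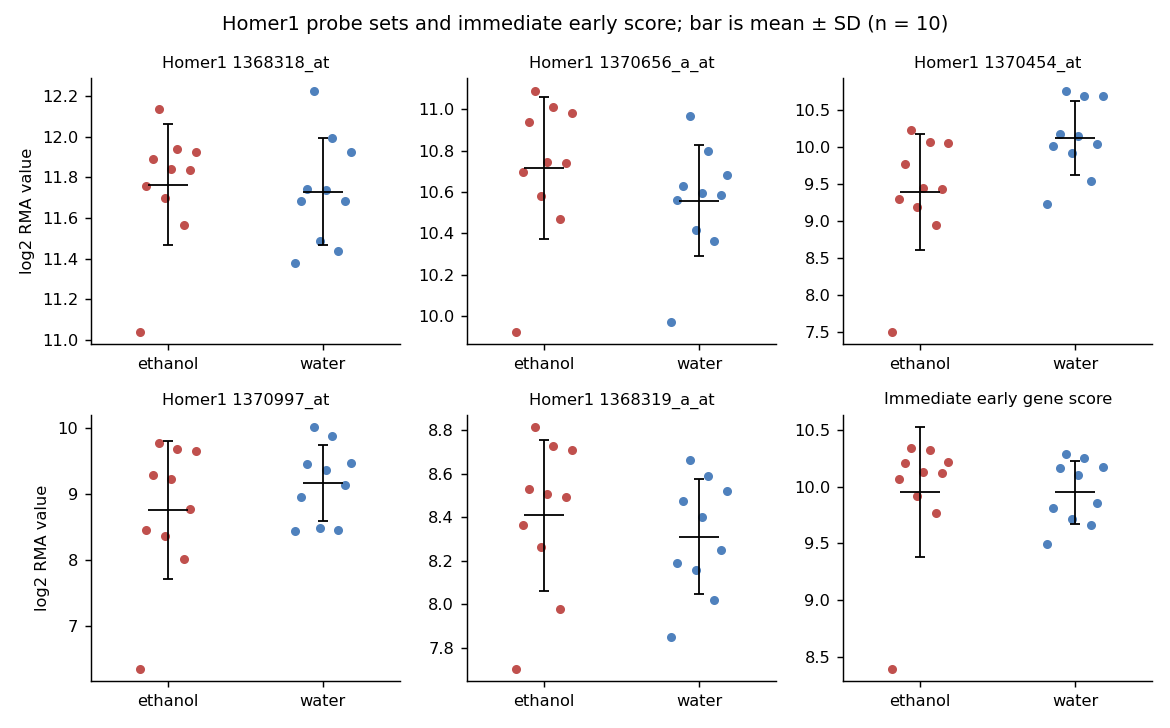
Log2 RMA value of the 5 Homer1 probe sets and the immediate early gene score (mean log2 of 11 measured genes) in every animal, with ethanol left of water, and the bar showing the mean and SD of 10 animals. Ethanol animal 1 is the lowest point in each panel, and 9 of the 10 ethanol animals lie under the water mean of 10.12 in the 1370454_at panel.

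Taking the gap between Homer1 probe sets removes a shared shift only where both read it at the same size. The SD of 1368318_at was 0.30 in ethanol animals and 0.26 in water animals. That of 1370454_at was 0.79 in ethanol animals and 0.50 in water animals. Their deviations from the group means correlated at r = 0.85. A shared shift can thus remain in their gap, which does not separate it from a difference between Homer1 forms. The gap of 1368318_at over 1370454_at was 0.76 larger in ethanol animals (SE 0.20), and 0.63 larger without ethanol animal 1. It is given without a p because the pair was picked with the values known. Across animals the 5 probe sets nevertheless moved together within groups, with r from 0.64 to 0.90 over their 10 pairs. Without ethanol animal 1 these r ran from 0.34 (1368318_at with 1370997_at) to 0.82 (1370656_a_at with 1370454_at). That of 1370656_a_at with 1370997_at fell from 0.70 to 0.45. Homer2 (1368872_a_at), a long-form scaffold, lay below the level filter, with 6.37, 6.74 and 7.01 in ethanol animals against 6.54, 6.72 and 6.96 in water animals. Its difference was 0.05 (SE 0.071), and it has no call.

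The other genes of the families were read in the same fit. Homer3, a scaffold related to Homer1, had a lowest, median and highest value of 7.35, 7.47 and 7.55 in ethanol animals, against 7.54, 7.61 and 7.82 in water animals (1385573_at), and 9 ethanol animals lay below the lowest water animal. Its difference was -0.20 (SE 0.046), with limma's adjusted p = 0.174, and it was -0.23, -0.21 and -0.14 in the 3 runs. The other Homer3 probe set and the 3 probe sets of Grm6, a receptor best known from retinal bipolar cells, lay below the level filter.

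Signalling genes downstream of the receptors showed no call on lists written with earlier results of these data known. For comparison, over all tested probe sets 7.37% were higher and 5.48% lower at an unadjusted p under 0.05, and the median difference was 0.016. Of 17 listed genes of group I signalling 10 were tested, 0 were called, 3 were higher and 0 lower at an unadjusted p under 0.05, and the median difference was 0.11. Gna11, a Gq-family subunit, was at 9.02 ± 0.097 in ethanol animals and 8.88 ± 0.11 in water animals, a difference of 0.15 (SE 0.048), with limma's adjusted p = 0.286. Plcb1, a phospholipase C, differed by 0.11 (SE 0.043), with limma's adjusted p = 0.320. Of 15 listed genes of group II and III signalling 10 were tested and 0 called, 1 was higher at an unadjusted p under 0.05, and the median was -0.03. There Gnao1, the Go subunit, differed by 0.13 and Gnai2, a Gi subunit, by -0.08. Of 26 listed partners of the receptors 21 were tested, 0 were called, 2 were higher at an unadjusted p under 0.05, and the median was 0.06. Nptn, a cell-adhesion protein, differed by 0.11, and Cabp1, a neuronal calcium sensor, by 0.29. Of all the tested probe sets 4 were called.

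Variation between animals of the same group does not use the ethanol and water contrast. Deviations from the group means were correlated for the 28 pairs of main probe sets, with two-sided permutation tests adjusted over the 28. Of these, 2 passed on Pearson's r. Grm5 and Homer1 varied together (r = 0.92, permutation adjusted p = 0.00028), with Spearman's rho = 0.77 (permutation adjusted p = 0.0056). The r was 0.93 in ethanol animals and 0.92 in water animals, 0.82 without the 2 animals farthest from the Grm5 median, 0.87 without ethanol animal 1, and 0.95 with the run means removed. Among all tested probe sets, 0.0591% correlated with Grm5 at least as highly. Grm2 and Grm3 moved in opposite directions (r = -0.67, permutation adjusted p = 0.029), while Spearman's rho of -0.57 did not pass (permutation adjusted p = 0.0713). This relation was -0.08 with the myelin score removed and -0.52 without the 2 animals farthest from the Grm2 median. It no longer passed without ethanol animal 2 (-0.66), ethanol animal 3 (-0.51) or water animal 18 (-0.64). The other 26 pairs had r between -0.57 and 0.48, and Grm7 passed with no other gene of the set.

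The promoter windows of the Grm5 and Homer1 pair are shown because these genes covaried most. They are RefSeq windows of assembly GRCr8, 250 bases before to 50 bases after the start taken for each window, on the plus strand. They lie at chr1:150733503-150733802 for Grm5 and at chr2:26278762-26279061 for Homer1. The Grm5 window lies inside the annotated gene, which begins at 150722711, so it does not cover that gene start. Capitals mark a motif match.
Grm5: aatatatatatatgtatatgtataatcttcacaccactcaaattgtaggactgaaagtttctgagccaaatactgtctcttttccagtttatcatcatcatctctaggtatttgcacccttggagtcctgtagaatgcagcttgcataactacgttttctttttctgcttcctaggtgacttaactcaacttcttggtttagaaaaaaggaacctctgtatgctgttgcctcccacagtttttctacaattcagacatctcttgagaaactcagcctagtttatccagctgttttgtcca
Homer1: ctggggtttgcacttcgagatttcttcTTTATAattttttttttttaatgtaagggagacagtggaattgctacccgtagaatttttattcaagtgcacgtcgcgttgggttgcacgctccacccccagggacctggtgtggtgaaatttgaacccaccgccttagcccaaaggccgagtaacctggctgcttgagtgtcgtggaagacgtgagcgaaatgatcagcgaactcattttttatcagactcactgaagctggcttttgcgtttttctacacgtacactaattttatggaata
The motifs searched on both strands were the CRE (TGACGTCA), its short form (TGACG), which lies inside the CRE, the E-box (CACGTG), the GC box (GGGCGG), the TATA box (TATAAA) and the MEF2 core (TATTTTTA). They occur in 1.83%, 21.2%, 6.42%, 33.1%, 14.2% and 2.69% of 33469 promoter windows, in that order. The Grm5 window had none of them, which says nothing about the annotated gene start, and Homer1 had a TATA box match 223 bases before its start. Grm7, on chromosome 4, had GC box matches 80 and 21 bases before the start of its window. Grm8, whose window also lies inside the annotated gene, had none. A promoter window was matched for these 4 of the 8 genes.

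The receptors and scaffolds also followed different cell marker scores. The 15 probe sets were correlated with 12 scores, 180 relations in all, with permutation tests adjusted over the 180. Grm3 followed the myelin score most closely (r = 0.95, rho = 0.94, permutation adjusted p = 0.0018), with r = 0.98 in ethanol animals and 0.92 in water animals. It also followed the oligodendrocyte precursor (r = 0.78) and astrocyte (r = 0.72) scores, and these 3 relations passed in all 22 alternatives. Grm3 passed with the microglia score as well (r = 0.65, permutation adjusted p = 0.0207), and in 19 of the 22 alternatives. Grm7 ran against the endothelial score (r = -0.69, rho = -0.71, permutation adjusted p = 0.0134). The Grm8 probe set 1369391_at followed the pan-neuronal score (r = 0.76, permutation adjusted p = 0.0072), where rho was 0.57 and did not pass (permutation adjusted p = 0.104). With that score as a covariate its ethanol difference was 0.07, that of 1371243_at was 0.15 and that of the main Grm8 probe set was -0.09. The main Homer1 probe set followed the cortical excitatory score (r = 0.73, rho = 0.85, permutation adjusted p = 0.0072). The main Grm5 and Homer1 probe sets both passed with the striatal medium spiny neuron score (r = 0.78 and 0.66), where neither rho passed. Without ethanol animal 1 these r were 0.58 and 0.42. Both main probe sets ran against the microglia (r = -0.60 and -0.59) and oligodendrocyte precursor (r = -0.60 in both) scores. With the precursor score neither rho passed (permutation adjusted p = 0.087 and 0.314), and r passed in 16 and 10 of 22 alternatives. No other Grm5 or Homer1 probe set passed with either score. For Grm5 1369355_at r was -0.34 with microglia and -0.12 with precursors. Against the myelin score Homer1 (r = -0.67) and Grm2 (r = -0.69) passed, and Grm5 (r = -0.60) did not. Grm2 also ran against the microglia score (r = -0.49).

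**Figure D4:**
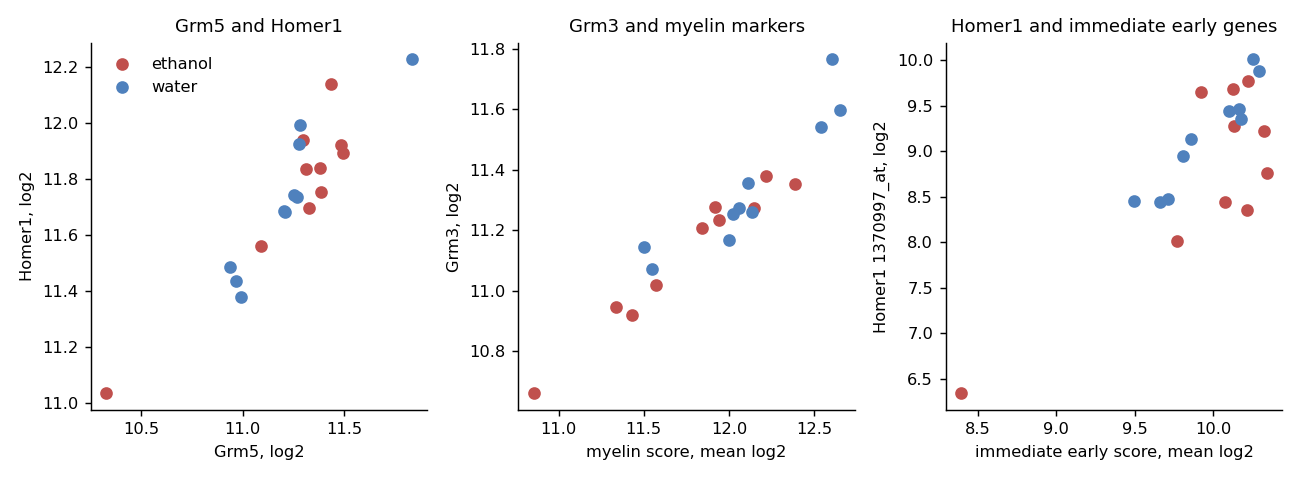
Each point is an animal (ethanol red, water blue), with log2 values of Grm5 and Homer1 (left), Grm3 and the myelin score (middle) and Homer1 1370997_at and the immediate early score (right). The Grm5 and Homer1 points form a line in both groups (r of deviations 0.92), and 1 ethanol animal is far below in the left and right panels.

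The main Grm5 probe set and Homer1 also followed a score of immediate early genes (Fos, Arc, Egr1 and others), a list that was added after seeing the data. The r was 0.84 for the main Grm5 probe set (permutation adjusted p = 0.0106), where rho of 0.61 did not pass (permutation adjusted p = 0.0817). The other Grm5 probe set, 1369355_at, did not pass (r = 0.76, permutation adjusted p = 0.0508). Its r was 0.38 without ethanol animal 1 and 0.37 in water animals. The r was 0.76 for the main Homer1 probe set, where rho of 0.50 did not pass (permutation adjusted p = 0.223), and 0.85 for 1370997_at, where rho of 0.68 passed (permutation adjusted p = 0.0357). Ethanol animal 1 had a score of 8.39, and the score was 9.95 ± 0.58 in ethanol animals and 9.95 ± 0.28 in water animals. Without that animal r was 0.56 for the main Grm5 probe set, 0.53 for the main Homer1 probe set and 0.66 for 1370997_at. None of the 3 passed (permutation adjusted p = 0.146, 0.233 and 0.0512, in that order). In the water group, which does not hold that animal, r was 0.65 for the main Grm5 probe set, 0.70 for the main Homer1 probe set and 0.95 for 1370997_at.

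**Figure D5:**
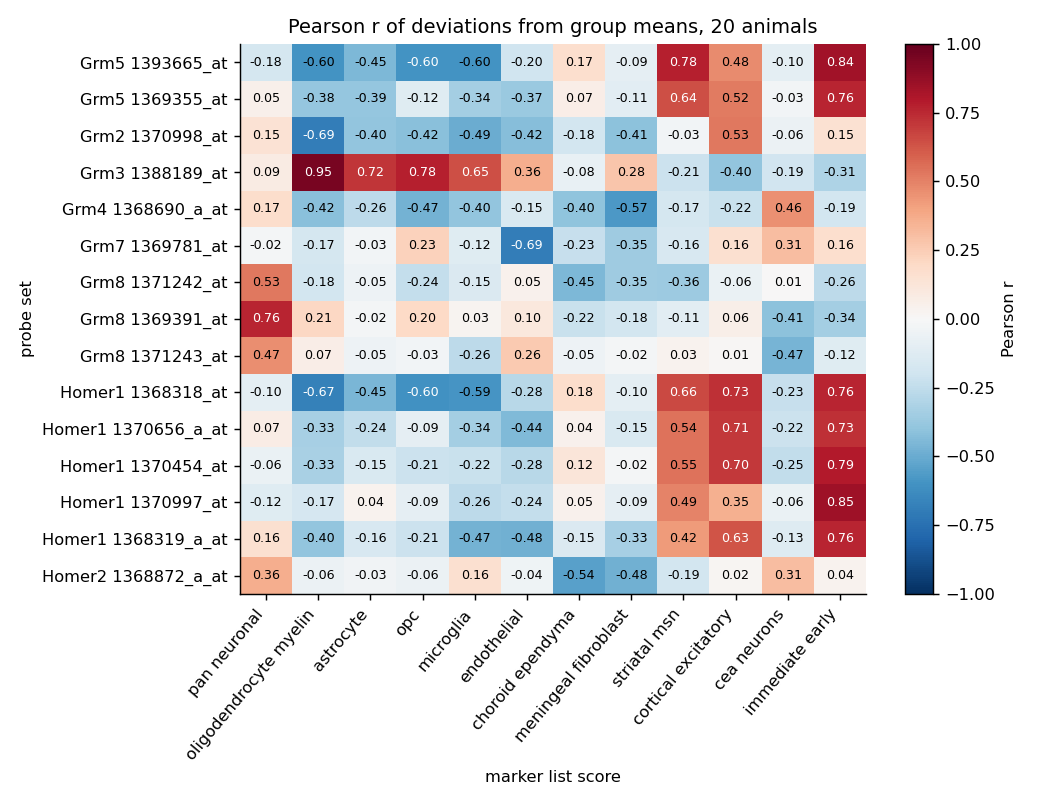
Pearson r of within-group deviations over 20 animals between each of the 15 probe sets (rows) and 12 marker scores (columns), from -1 (blue) to 1 (red). The Grm3 row has its highest r of 0.95 in the myelin column, and the Grm5 and Homer1 rows share high r in the immediate early column.

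By the same measure of likeness, the gene closest to each member over 20 animals was Actr3b for Grm5 (r = 0.94), Cnksr2 for Homer1 (r = 0.95), Ppp1r16b for Grm3 (r = 0.96), Ppme1 for Grm2 (r = 0.83), Pla2g15 for Grm4 (r = 0.80), Nicn1 for Grm8 (r = 0.79) and Tmem181 for Homer2 (r = 0.72). For Grm7 the closest were Cstpp1 (r = 0.86), Morf4l2 (0.83), Poldip3 (0.81), Rnps1 (0.81) and H2az1 (0.81). In water animals, which include the low Grm7 value of animal 15, r was 0.97 for Cstpp1, 0.95 for Poldip3 and 0.95 for Rnps1. In ethanol animals these were 0.63, 0.53 and 0.52. Morf4l2 (0.89 in water, 0.83 in ethanol) and H2az1 (0.82 and 0.80) were alike in both groups. An r over 0.7 with Grm7 was found for 1.15% of tested probe sets. Each of these is the best of 18625 or fewer probe sets, and all 20 animals enter both sides, so they are a description.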

How the data were processed

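RNA from the central nucleus of the amygdala of 20 P rats (ethanol 10, water 10) was measured on Affymetrix arrays, 1 per animal. Trizol and an RNeasy kit were used for extraction and the Affymetrix 3' IVT kit for biotin labelling, per the labels' protocols. The authors deposited log2 values, 1 per probe set and array, produced by RMA per the submitters' processing notes, with no version stated there; the log base follows from their range (3.82 to 16.16). The labels name no batch and no shared litter or culture.

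The members and gene lists were chosen with earlier results of these data known. Probe sets above the 40th percentile of the mean over all arrays (18625, controls left out) were fitted with limma 3.58.1 in R 4.3.3 (lmFit and eBayes, two-sided, Benjamini-Hochberg, threshold 0.05). The number of arrays limits the precision. Relations between animals used deviations from group means, with two-sided permutation tests of 100000 resamples permuting animals within groups, in Python 3.11.15 with numpy 2.4.6, pandas 2.3.3 and scipy 1.17.1. Fewer resamples were used for the relations with marker scores when arrays were left out. Figures were drawn with matplotlib 3.10.9. The fit was tested on simulated data.

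Named genes were all members, the 2 genes with the smallest p from each of the 3 lists of signalling and partner genes (or those past the threshold), the gene most like each member (5 for Grm7) and the family genes Grm6 and Homer3. Alternatives were other filters, median centring, cyclic loess, array quality weights, trend and robust eBayes, the run of the accession order, the 3' to 5' ratio, myelin and pan-neuronal scores as covariates, the probe set of largest SD, and leaving out arrays. The immediate early list, that score and the endothelial score as covariates, the relations of probe sets with marker scores, their alternatives and the agreement of Homer1, Grm8 and Grm5 probe sets were added after seeing the data. Promoter sequences and gene positions are from RefSeq (GRCr8).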

Additional observations from a re-analysis of the deposited data

Results flagged for a closer look

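Of 30 groups of 10 values (15 probe sets in both groups), 9 had an animal farther from its nearest neighbour than expected of an even spread, and chance alone flags about 1 in 20 groups. Ethanol animal 1 was the lowest for both Grm5 probe sets (10.33 and 7.84) and for 4 Homer1 probe sets, 1368318_at (11.04), 1370656_a_at (9.92), 1370454_at (7.50) and 1370997_at (6.34). These probe sets covary, so the 6 flags are not independent, and this animal also had the lowest immediate early gene score. Water animal 15, one of the arrays that stood apart, was the highest for Grm5 1393665_at (11.83) and the lowest for Grm7 (7.12). Ethanol animal 3 was the highest for Grm2 (7.35).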

How the results depend on the processing

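None of the probe sets of these genes was called under 32 of 33 alternatives. With the endothelial score as a covariate 1 was called, Grm7, with a difference of 0.50 (SE 0.086, limma adjusted p = 0.038). That covariate was chosen after seeing that Grm7 ran against this score, and it was the only alternative with a call, so it adds no support. Under the other alternatives Grm7 kept its direction, with limma's adjusted p between 0.105 and 0.476. Over all probe sets the count of calls was 4, and 0 to 23 under the alternatives. Grm5 1393665_at turned to -0.12 with the myelin score as a covariate and ran from -0.0022 to 0.13 when leaving out 1 animal. Homer1 1368318_at turned to -0.12 with the myelin score and ran from -0.0089 to 0.11 when leaving out 1 animal, and Homer1 1368319_a_at turned to -0.0021 with the myelin score. Reading the probe set of largest SD gave 0.22 for Grm8, -0.41 for Homer1 and 0.21 for Grm5. Homer2, without a call, turned to -0.01 under 1 alternative. With the myelin score removed, r turned to 0.31 for Grm5 with Grm3 and to 0.31 for Grm3 with Homer1. The count of covarying pairs was 1 with run means removed, with the myelin score removed and without the 2 farthest animals, and 1 to 2 when leaving out 1 animal. The cause was not tested in any of these. The agreement of Grm7 probe sets and its alternatives were not run, as Grm7 has 1 probe set. No paired analysis was possible because no animal number occurs in both groups.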
